A study of Mus musculus with 3 samples.

Results

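Aerocytes are the large, thin endothelial cells of the lung capillary that lie against the alveolar epithelium. Here they were taken as the 382 of 19622 lung cells that held at least 2 of the 5 endothelial transcripts Pecam1, Cdh5, Cldn5, Egfl7 and Clec14a above 0, held Ptprc, Epcam and Col1a1 at 0, and held both Car4 and Ednrb above 0. The members were therefore chosen by the measured values of these 10 genes, and the levels of those genes are given as a description. The cells came from dissociated lungs of 3 wild-type female C57BL6/J mice, 1 mouse and 1 droplet library for each condition, collected 5 months after 13 Gy to the whole thorax. CONV was irradiated at the conventional dose rate and FLASH at the ultra-high dose rate, and neither received drug. CONV AsiDNA was irradiated at the conventional dose rate after intraperitoneal AsiDNA, a short double-stranded DNA molecule that mimics a strand break and engages DNA repair signalling. It was given at 100 mg/kg on 2 consecutive days and at 200 mg/kg on the day of irradiation. All 3 mice were irradiated, and unirradiated libraries were not analysed here. Because each condition is represented by a single mouse, no test was possible: the differences are between 3 libraries, and the intervals reflect how many cells were sampled. Where 3 values follow each other without names, they are those of CONV, CONV AsiDNA and FLASH in that order.

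The capillary network of the alveolus is built from aerocytes and from general capillary cells. Aerocytes are known for gas exchange and for the traffic of leukocytes, while general capillary cells regulate vascular tone and act as progenitors that renew the capillary after injury. Car4 encodes a membrane-bound carbonic anhydrase, which speeds the conversion of bicarbonate to carbon dioxide, and Ednrb encodes the type B endothelin receptor, which clears endothelin from the circulation. Aerocytes carry the VEGF receptor Kdr and secrete the peptide apelin, whose receptor Aplnr lies on general capillary cells. Fibin, Tbx2, Emp2 and Apln are among the genes used to recognise aerocytes, and Gpihbp1, Plvap, Cd93 and Aplnr among those of general capillary cells.

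The values are adjusted counts, the whole numbers that the deposited logarithms convert back to, and a level is given as adjusted CPM, the sum of a gene over the aerocyte cells of a library per 1000000 of the sum over all genes. A ratio between libraries is a log2 ratio of adjusted CPM plus 10, which understates the difference of low genes. Each table was deposited for its own library, and the sources used here do not say whether the libraries were adjusted together. Aerocyte cells had a median total of 3928, 3939.5 and 3901.5 adjusted counts and held a median of 1882, 1815.5 and 1782 genes above 0. The median mitochondrial share of these cells was 0.174%, 0.339% and 0.512%. No cell barcode was shared between the aerocyte cells of any 2 libraries, although 9 to 17 barcodes were shared between the whole tables.

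The label was checked against markers that the rule had not used. All 13 aerocyte genes outside the rule were above 0 in each library, and their summed level was 12400, 21030 and 22450. The same sum in the general capillary gate, which holds endothelial cells with Gpihbp1 above 0 and with Car4 and Ednrb at 0, was 1323, 1766 and 1721. A median of 9 of the 13 genes was above 0 per aerocyte cell in CONV and of 10 in each of the others, against 2, 3 and 3 in the general capillary gate. The rule had already held Epcam, Col1a1 and Ptprc at 0. Low epithelial, fibroblast and leukocyte markers were therefore in part set by it and are given as a description. All 6 alveolar type 2 markers and all 6 fibroblast markers were listed at 0 in the aerocyte cells of every library. Of the 6 alveolar type 1 markers only Hopx was above 0, in 83.3%, 83.8% and 88.7% of the cells, while Ager, Rtkn2, Aqp5, Cldn18 and Igfbp2 were at 0. Macrophage markers were above 0 in 1 CONV cell only, through Chil3 and Mrc1, a lymphocyte marker in 1 FLASH cell and a platelet marker in 1 CONV AsiDNA cell. Of the 6 lymphatic markers, 5, with the regulator Prox1 among them, were at 0 in every aerocyte cell, and Flt4, a VEGF receptor, was above 0 in 27.8%, 45.0% and 33.3% of the cells. Any of the 10 large vessel markers was above 0 in 77.8%, 66.3% and 64.3%, with Efnb2 in 40.7%, 46.9% and 52.4%, Ackr3 in 57.4%, 38.1% and 23.2% and Vwf in 1.85%, 1.25% and 1.19%, while Gja5, Vcam1 and Dkk2 were at 0.

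The CONV library held fewer aerocyte cells than either other library. There were 54 among 6372 cells, 160 among 6983 and 168 among 6267. As a share of all cells this was 0.848% (95% interval 0.637% to 1.10%), 2.29% (1.95% to 2.67%) and 2.68% (2.30% to 3.11%). The interval of CONV lay below both others, and those of CONV AsiDNA and FLASH overlapped. The endothelial gate as a whole differed less, with 5.87%, 6.502% and 7.72% of all cells. Within that gate aerocyte cells made up 14.4% (11.04% to 18.4%), 35.2% (30.9% to 39.8%) and 34.7% (30.5% to 39.1%). The general capillary gate was instead highest in CONV as a share of the endothelial cells, with 43.1%, 33.9% and 28.9%. Its cells numbered 161, 154 and 140. Both are shares of the same endothelial cells, so a lower share of aerocyte cells raises that of the rest. These are shares of cells released by enzymatic digestion and then loaded, and fewer aerocytes in the tissue, poorer release and lower Car4 or Ednrb RNA per cell cannot be told apart.

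**Figure D1:**
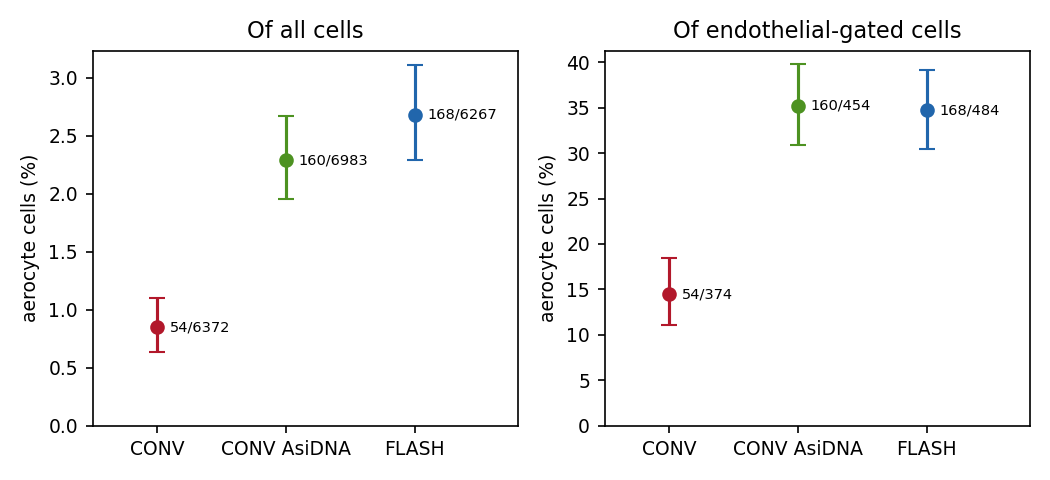
Aerocyte cells as a percentage of all cells (left) and of endothelial-gated cells (right) in the 3 libraries, with points for the share, bars for exact Clopper-Pearson 95% intervals and the cell counts beside them. CONV, at 0.848% and 14.4%, lies below the intervals of the other libraries on both axes.

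Cells just outside the rule were counted as well. Endothelial cells with Car4 above 0 and Ednrb at 0 numbered 53, 55 and 86, or 14.2%, 12.1% and 17.8% of the endothelial gate. Those with Ednrb above 0 and Car4 at 0 numbered 35, 22 and 31, or 9.36%, 4.85% and 6.41%, highest in CONV. Just inside the rule, Ednrb stood at an adjusted count of 1 in 20 of the CONV cells (37.0%), in 19 of the CONV AsiDNA cells (11.9%) and in 8 of the FLASH cells (4.76%). Car4 stood at 1 in 0, 3 and 2 cells. All 5 endothelial genes were above 0 in 46, 120 and 128 aerocyte cells, and no cell with both Car4 and Ednrb above 0 and the 3 excluding genes at 0 had fewer than 2 of them. Only 1 further cell, in CONV AsiDNA, was left out for Ptprc, Epcam or Col1a1 alone.

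The genes of the rule differed in level among the members. The mean adjusted count of Car4 per aerocyte cell was 12.2, 16.9 and 16.4. That of Ednrb was 2.85, 6.35 and 6.65, and its median was 2, 6 and 6. Both were lowest in CONV and close to each other in the other 2 libraries. Clec14a was instead highest in CONV, at 926, 430 and 474 adjusted CPM. For Pecam1, Cdh5, Cldn5 and Egfl7 the log2 ratios of CONV over the others lay between -0.28 and 0.21. Car4 lies on chr11:84957786-84966044 and Ednrb on chr14:103814625-103844402 in GRCm38, the assembly also called mm10 that the submitters' processing notes name. The bases upstream of their RefSeq start sites (GRCm38.p6) are shown because these genes define the cells. Each sequence runs 5′ to 3′ on the strand of the gene from 250 to 21 bases before the start. Capitals mark ACGTG or GCGTG on either strand, the core letters of the elements used by the hypoxia-inducible factors, of which GCGTG is also the core of the element of the aryl hydrocarbon receptor.
Car4, chr11:84957504-84957733, strand +: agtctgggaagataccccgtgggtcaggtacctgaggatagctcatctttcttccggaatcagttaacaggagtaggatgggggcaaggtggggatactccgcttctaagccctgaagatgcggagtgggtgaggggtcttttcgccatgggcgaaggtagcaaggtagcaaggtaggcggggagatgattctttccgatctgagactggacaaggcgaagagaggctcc
Ednrb, chr14:103843722-103843951, strand -: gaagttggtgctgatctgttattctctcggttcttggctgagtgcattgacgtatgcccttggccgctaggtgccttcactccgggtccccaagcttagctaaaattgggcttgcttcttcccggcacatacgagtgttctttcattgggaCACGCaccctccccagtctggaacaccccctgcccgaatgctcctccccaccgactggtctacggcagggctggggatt
Car4 held no match and Ednrb held 1, a GCGTG on the other strand. Of 32851 promoter windows of the same length, 36% held at least 1 match.

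The aerocyte genes outside the rule were lower in CONV. All 13 were compared, that is, above 0 in on average at least 10% of the aerocyte cells, and all 13 had a lower level in CONV than in CONV AsiDNA and than in FLASH. Their median log2 ratio was -0.67 against CONV AsiDNA and -0.63 against FLASH, beside medians of 0.02 and 0.02 over all 5227 genes compared. A 2-fold or larger difference was reached by 4 of the 13 against CONV AsiDNA and by 5 against FLASH, where 4.71% and 4.4% of all genes compared were lower in CONV by as much. Between CONV AsiDNA and FLASH none of the 13 was 2-fold apart, and the median was -0.07. Members had been selected on Ednrb, and Ednrb was also lowest in CONV, so these genes and the rule share cells.

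Emp2, a membrane protein of the tetraspan family, was the most abundant of them. It stood at 3311 adjusted CPM, 6480 and 6817, a log2 ratio of CONV of -0.97 and -1.04. Its median per cell was 12, 24 and 25.5, and from the lower to the upper quartile the cells held 5.25 to 16.75, 17 to 32 and 16 to 34. The range between quartiles in CONV thus lay just below that of CONV AsiDNA and overlapped that of FLASH slightly, and single cells overlapped more widely. Fibin, which encodes a secreted protein, stood at 588, 1691 and 2027. It was above 0 in 57.4% (43.2% to 70.8%), 82.5% (75.7% to 88.1%) and 93.5% (88.6% to 96.7%) of the cells. With every cell thinned to 1000 adjusted counts these shares were 31.5%, 63.8% and 73.8%, in the same order. The cytochrome P450 gene Cyp4b1 stood at 1215, 2755 and 2998, and Rprml at 134, 320 and 331. CONV was again lowest by more than 2-fold for both, a size that both lost when cells with Gpihbp1 and other markers were left out.

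Kdr, the main VEGF receptor, stood at 2609, 3343 and 3838, and Apln at 632, 1088 and 976. Both were lowest in CONV, with log2 ratios between -0.36 and -0.77. The transcription factor Tbx2 was nearly even at 792, 848 and 882. Sirpa, an inhibitory receptor for CD47, stood at 14.9, 160 and 252 and was above 0 in 1.85%, 41.3% and 57.1% of the cells. In CONV it came from a single cell with Gpihbp1 above 0. Sirpa was above 0 in 23.4%, 19.8% and 17.9% of non-endothelial cells. Whether the adjustment of the deposited values set Sirpa to 0 unevenly in aerocyte cells was not tested. Pmp22 (1519, 2423 and 2354), Prx (956, 1150 and 1150), Chst1 (483, 543 and 594), Cdkn2b (89.6, 141 and 153) and Nckap5 (54.8, 89.9 and 80.3 adjusted CPM) completed the list.

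**Figure D2:**
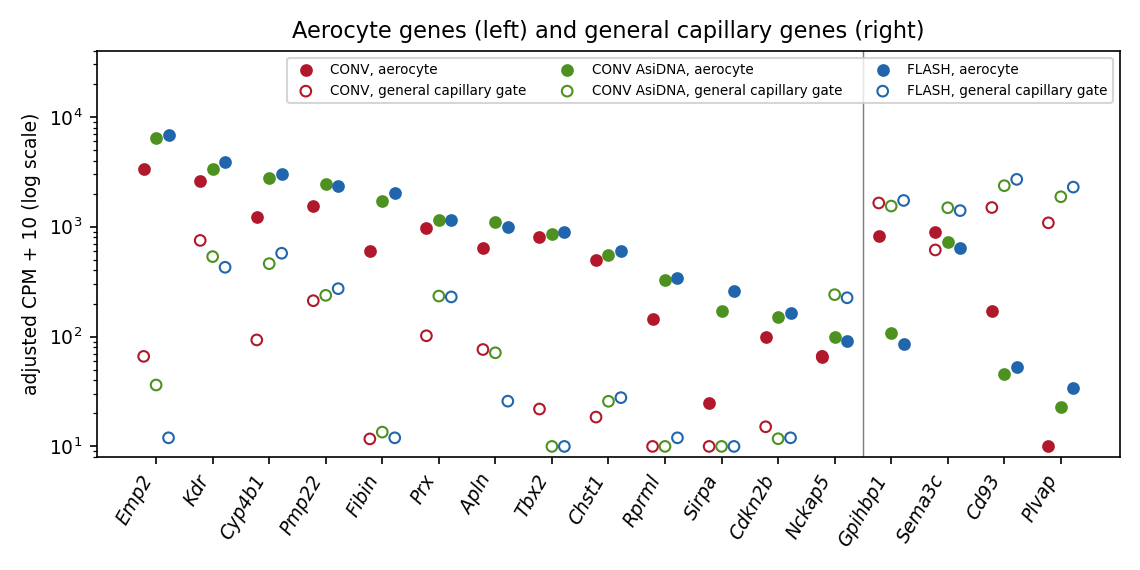
Level (adjusted CPM plus 10, log axis) of the 13 aerocyte genes outside the rule and of 4 general capillary genes, with filled points for aerocyte cells, open points for the general capillary gate and a colour for each library. The filled CONV point is the lowest of the 3 for every aerocyte gene, and for Gpihbp1 it stands at 807 against 98.0 and 75.5.

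Gpihbp1, which carries lipoprotein lipase to the capillary wall and marks general capillary cells, was more frequent among the aerocyte cells of CONV. Its level was 807, 98.0 and 75.5. It was above 0 in 55.6% (41.4% to 69.1%), 18.1% (12.5% to 25.0%) and 17.9% (12.4% to 24.5%) of the cells, and in 37.0%, 10.0% and 5.95% after thinning. The interval of CONV lay above both others. Not every general capillary marker was highest in CONV. Cd93 stood at 159, 36.0 and 43.4, Sema3c, a secreted semaphorin, at 886, 712 and 630, and Tek, the angiopoietin receptor, at 39.8, 11.4 and 11.2. Plvap, the diaphragm protein of fenestrae, stood at 0, 13.1 and 24.1, Aplnr at 0, 0 and 1.61, Kit at 4.98, 0 and 3.21, and Lpl at 0, 3.27 and 0. Summed over the 9 markers of the list, the level was 1902, 876 and 797 in aerocyte cells and 5622, 8338 and 9267 in the general capillary gate.

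Aerocyte cells with and without Gpihbp1 were also set side by side in each library, a division made after the values were seen and given as a description. In CONV, 30 cells had Gpihbp1 above 0 and 24 had it at 0. Ednrb stood at 531 in the former and 1083 in the latter, Emp2 at 2462 and 4447, Fibin at 313 and 955, Tbx2 at 505 and 1176, and Cyp4b1 at 861 and 1688. Levels of these aerocyte genes were thus lower where Gpihbp1 was present, but Apln, at 696 and 547, and Chst1, at 496 and 466, were not. Clec14a, an endothelial lectin, stood at 1261 and 477. The division ran in part the same way elsewhere. In CONV AsiDNA, 29 cells with Gpihbp1 above 0 and 131 without it stood at 1163 and 1773 for Ednrb, at 5320 and 6745 for Emp2, at 1392 and 1759 for Fibin, at 608 and 903 for Tbx2 and at 520 and 409 for Clec14a. In FLASH, 30 and 138 such cells stood at 1452 and 1869 for Ednrb, at 5923 and 7013 for Emp2, at 1380 and 2169 for Fibin, at 891 and 880 for Tbx2 and at 419 and 486 for Clec14a. Ednrb, Emp2 and Fibin were thus lower in the cells with Gpihbp1 in each library, and whether the size differed between libraries was not tested.

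**Figure D3:**
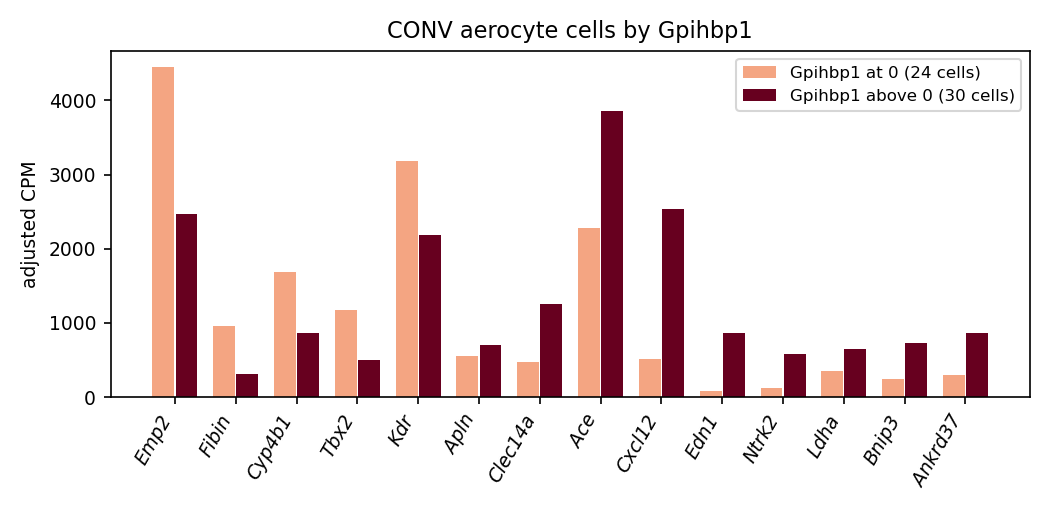
Adjusted CPM of 14 genes in CONV aerocyte cells with Gpihbp1 at 0 (24 cells, light bars) and above 0 (30 cells, dark bars). Emp2, Fibin, Cyp4b1, Tbx2 and Kdr are lower and Clec14a, Ace, Cxcl12, Edn1, Ntrk2, Ldha, Bnip3 and Ankrd37 higher in the cells with Gpihbp1.

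Leaving out these cells, together with cells above 0 for Sftpc, Lyz2, Cd79a, Cd3e, Pf4, Acta2 or Vwf, kept 23, 131 and 137 aerocyte cells. The share of the endothelial gate was then 6.15%, 28.9% and 28.3%. Emp2 stood at 4507, 6745 and 7024 in the remaining cells and Fibin at 1002, 1759 and 2164, again lowest in CONV but by less. Of the 13 genes, 11 were lower in CONV in each comparison, with medians of -0.58 and -0.64. Only 2 were 2-fold lower than in CONV AsiDNA and 2 than in FLASH, against 4 and 5 with all cells. Over all genes the number 2-fold lower in CONV was instead larger in these cells, at 388 and 375 against 246 and 230. The number 2-fold higher in CONV was larger too, at 441 and 430 against 302 and 313. Cyp4b1, at -0.68 and -0.80, and Rprml, at -0.84 and -0.71, lost that size in both comparisons. Tbx2 turned to 1209, 903 and 877 and Prx to 1270, 1123 and 1181, higher in CONV. Kdr came to 3298, 3449 and 3900.

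Several genes of the response to low oxygen were higher in the CONV aerocyte cells. In this response the hypoxia-inducible factors, encoded in endothelium mainly by Hif1a and Epas1, raise genes of glycolysis and of mitochondrial turnover. Of all 11 genes of the list, 9 had their highest level in CONV and the other 2 were at 0 everywhere, where 41.3% of the 12532 genes above 0 in any aerocyte cell were highest in CONV and 29.6% lowest. Only 6 reached the limit for comparison, and 4 of these, Ldha, Bnip3, Hif1a and Ddit4, reached it through CONV alone, the mean share of cells in the other 2 libraries being under 10%, so the count of compared genes and their median ratio carry no weight here. The members are therefore given by their values. Over all genes compared, 5.78% were 2-fold or more higher in CONV than in CONV AsiDNA and 5.99% than in FLASH.

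Ldha, the lactate dehydrogenase subunit of glycolysis, stood farthest above both other libraries in CONV, by the smaller of its 2 ratios, among genes compared and above 0 in every library. It stood at 518, 8.17 and 20.9, and was above 0 in 72.2% (58.4% to 83.5%), 1.88% (0.388% to 5.38%) and 5.36% (2.48% to 9.93%) of the aerocyte cells. Bnip3, which targets mitochondria for removal, stood at 523, 9.80 and 22.5 and was above 0 in 63.0%, 3.75% and 7.14% of them. Ankrd37, a target of the hypoxia-inducible factors that the list did not hold and the ranking named, stood at 617, 62.1 and 25.7. Only CONV was high for each of the 3, with log2 ratios from 3.12 to 4.86. Hif1a stood at 115, 19.6 and 38.5, Ddit4, an inhibitor of mTORC1, at 84.6, 14.7 and 40.2, Epas1 at 3356, 2029 and 1991, and the glycolytic gene Pgk1 at 64.7, 31.1 and 36.9. Below the limit for comparison, Vegfa was above 0 in 24.1%, 1.25% and 0.595% of the cells, Adm in 14.8%, 0% and 0%, and the glucose transporter Slc2a1 in 16.7%, 0% and 0%. Egln3 and Hif3a were listed at 0 in every aerocyte cell.

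Beside these levels stand those of other cells. In the general capillary gate Ldha was at 272, 105 and 125, Bnip3 at 136, 29.7 and 23.7 and Ankrd37 at 199, 49.0 and 11.9, also highest in CONV. Vegfa there was at 241, 588 and 463, lowest in CONV. Among non-endothelial cells Ldha was above 0 in 41.1%, 39.1% and 40.2%. An uneven effect of the adjustment of the deposited values on these genes in aerocyte cells was not tested. Within CONV the aerocyte cells with Gpihbp1 held more of Ldha, 644 against 349, of Bnip3, 731 against 244.5, and of Ankrd37, 861 against 291. Without them and the other excluded cells Ldha remained at 342, 6.02 and 23.7 and Bnip3 at 257, 8.03 and 25.7, while Ankrd37 stood at 293, 56.2 and 11.85 and Pgk1 was even at 36.6, 36.1 and 35.5. Adm was then at 0 in every library, and Slc2a1 stood at 12.2, 0 and 0 and Vegfa at 61.1, 0 and 0.

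**Figure D4:**
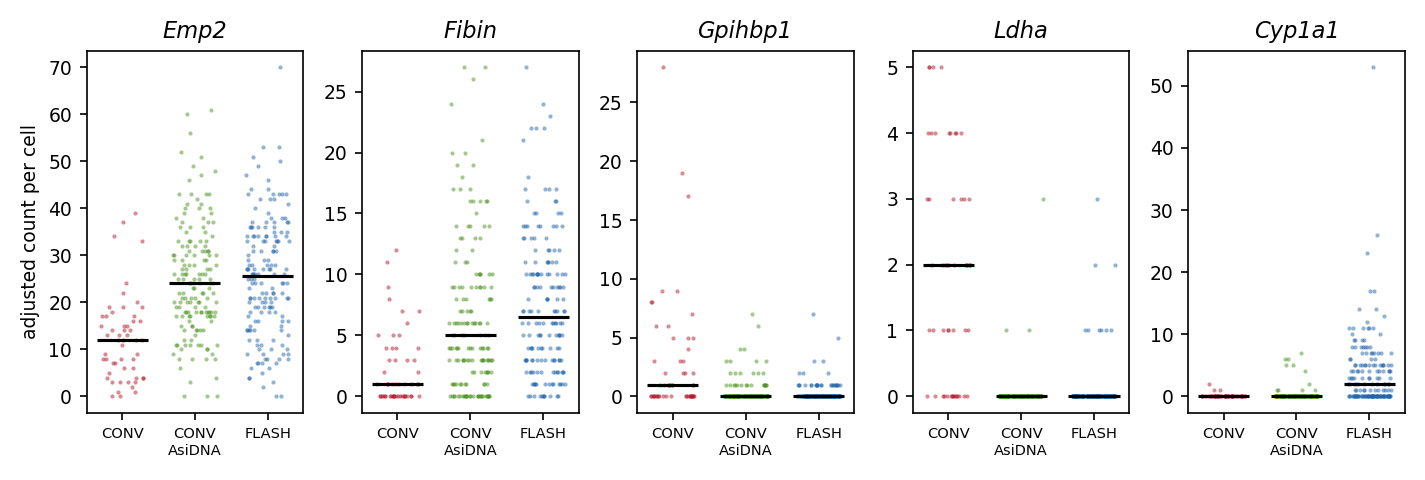
Adjusted count per aerocyte cell of Emp2, Fibin, Gpihbp1, Ldha and Cyp1a1 in the 3 libraries, with a point for each cell, spread sideways at random, and a black line at the median. Emp2 medians are 12, 24 and 25.5, the Ldha median is 2 in CONV and 0 elsewhere, and Cyp1a1 reaches 53 in a FLASH cell.

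The upstream bases of the hypoxia-response genes that stood highest are shown because they were high together in CONV. Ldha lies on chr7:46841475-46855627, Bnip3 on chr7:138890836-138909519 and Ankrd37 on chr8:45996902-46005707. The sequences follow the layout given for Car4 and Ednrb, and for Ldha the first of its RefSeq starts was taken.
Ldha, chr7:46845554-46845783, strand +: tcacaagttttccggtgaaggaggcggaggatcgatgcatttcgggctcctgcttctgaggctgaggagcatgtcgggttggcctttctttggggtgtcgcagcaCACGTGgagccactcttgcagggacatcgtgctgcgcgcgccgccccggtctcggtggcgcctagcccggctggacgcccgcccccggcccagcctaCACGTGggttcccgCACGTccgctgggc
Bnip3, chr7:138909527-138909756, strand -: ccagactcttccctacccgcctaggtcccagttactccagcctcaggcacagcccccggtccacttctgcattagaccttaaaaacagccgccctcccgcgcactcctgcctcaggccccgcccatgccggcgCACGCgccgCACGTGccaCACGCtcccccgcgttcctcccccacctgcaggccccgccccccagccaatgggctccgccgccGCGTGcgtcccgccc
Ankrd37, chr8:45999871-46000100, strand -: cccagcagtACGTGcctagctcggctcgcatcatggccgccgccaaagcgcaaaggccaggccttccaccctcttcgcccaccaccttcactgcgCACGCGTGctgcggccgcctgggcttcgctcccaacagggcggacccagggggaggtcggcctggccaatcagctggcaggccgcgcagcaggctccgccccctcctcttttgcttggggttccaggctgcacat
Ldha held 5 matches, all ACGTG, counting both strands, so that each palindromic CACGTG counts on both. The window of its second RefSeq start, at chr7:46846832-46847061, held only 1, a GCGTG, and 36% of all windows hold at least 1 match. Bnip3 held 5, of which 2 were ACGTG and 3 GCGTG, and Ankrd37 held 3. At least 3 matches were present in 5.37% of all windows of this length and at least 4 in 2.03%. The genes shown were chosen as known genes of the hypoxia response, so their counts beside these shares are a description. A match describes these letters and not a bound site.

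Among the genes compared and above 0 in every library, Cyp1a1 stood farthest above both others in FLASH, the library through which alone it reached the limit for comparison. It encodes a cytochrome P450 and is the classical target of the aryl hydrocarbon receptor, a sensor of planar ligands. It stood at 19.9, 63.7 and 1021, a log2 ratio of -5.11 for CONV and -3.81 for CONV AsiDNA over FLASH. It was above 0 in 5.56% (1.16% to 15.4%), 6.88% (3.48% to 11.97%) and 60.1% (52.3% to 67.6%) of the aerocyte cells, and in 1.85%, 3.13% and 43.5% after thinning. FLASH thus stood apart on every measure, with counts per cell from 0 to 53 and a median of 2. The general capillary gate had the same order at 11.9, 15.7 and 192, while non-endothelial cells held Cyp1a1 above 0 in 0.05002%, 0.0459% and 0%. Genes of the same pathway were looked up after this value was seen. The receptor gene Ahr stood at 179, 208 and 199, the repressor Ahrr and Cyp1b1 were listed at 0 in every aerocyte cell, Tiparp stood at 19.9, 0 and 0, and Nqo1 at 29.9, 6.54 and 11.2. None of these was highest in FLASH. The bases upstream of the RefSeq start of Cyp1a1, which lies within the annotated gene at chr9:57687928-57703824, are shown for the receptor's core letters.
Cyp1a1, chr9:57697363-57697592, strand +: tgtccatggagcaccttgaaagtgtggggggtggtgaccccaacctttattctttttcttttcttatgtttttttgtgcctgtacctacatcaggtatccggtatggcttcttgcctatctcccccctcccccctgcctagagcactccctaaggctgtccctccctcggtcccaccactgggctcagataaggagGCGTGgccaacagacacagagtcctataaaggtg
This window held 1 match, a GCGTG, a number reached or passed by 26.1% of all windows for GCGTG.

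The next genes above both others in FLASH were lower and closer, and each of the 4 also reached the limit through FLASH alone. Mau2, a loader of cohesin, stood at 14.9, 40.9 and 93.1, Edc3, of mRNA decapping, at 19.9, 21.2 and 52.99, Gpcpd1 at 24.9, 27.8 and 64.2 and Stt3b, of protein glycosylation, at 24.9, 24.5 and 57.8. Among genes compared and above 0 in every library, Tgfb2, a TGF-beta ligand, was the farthest below in FLASH at 84.6, 50.7 and 3.21. Fxyd5, a regulator of the sodium pump, stood at 607, 128 and 35.3, Trim2 at 110, 91.5 and 24.1, Dnajc4 at 54.8, 49.0 and 9.64 and Arhgap5 at 84.6, 27.8 and 4.82. Tgfb2 and Arhgap5 would have been below the limit for comparison had CONV not been counted. Tgfb2 would also have been below it without CONV AsiDNA, so the place of both in this order is a description. For CONV AsiDNA too, only genes compared and above 0 in every library were ranked. The 5 farthest above both others there were Znhit3 (19.9, 55.6 and 11.2), the interferon-stimulated Rtp4 (39.8, 101 and 41.8), the mitochondrial iron importer Slc25a37 (14.9, 57.2 and 22.5), Kif21a (29.9, 73.5 and 30.5) and Clec4g (39.8, 94.8 and 43.4 adjusted CPM). Their smaller log2 ratio lay between 0.97 and 1.13, and Znhit3, Slc25a37 and Kif21a reached the limit through CONV AsiDNA alone. CONV AsiDNA and FLASH were 2-fold apart for few genes, with 0.957% of those compared (50 genes) higher and 0.899% (47) lower in CONV AsiDNA. With a prior of 1 these were 113 and 103 genes, and with no filter beyond a sum of 20 they were 132 and 150. Ratios with CONV rest on 54 cells and this one on 160 and 168, so the number of cells differs between the comparisons too.

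With the same limit to genes compared and above 0 in every library, the 5 genes farthest above both others in CONV were Ldha, Bnip3, Ntrk2, Ahnak and Ankrd37. All but Ankrd37 reached the limit through CONV alone, so their place in this order is a description. Ntrk2, the receptor of the neurotrophin BDNF, stood at 388, 16.3 and 8.03 and Ahnak, a large scaffold protein, at 244, 16.3 and 4.82. Without the cells of Gpihbp1 and other markers Ntrk2 stood at 134, 16.05 and 7.90. Ahnak was above 0 in 45.6%, 51.6% and 50.7% of non-endothelial cells. Itgb5, an integrin subunit, was the farthest below in CONV with that limit, at 24.9, 268 and 263. It was above 0 in 9.26%, 63.1% and 64.3% of the aerocyte cells and at 0 in the general capillary gate of every library. Gmfg stood at 4.98, 93.1 and 119, Lyve1, a hyaluronan receptor, at 19.9, 279 and 185, and the extracellular peroxidase gene Gpx3 at 9.96, 145 and 116. Without the cells of Gpihbp1 and other markers Lyve1 stood at 0, 74.2 and 126, with FLASH and no longer CONV AsiDNA highest. With Sirpa, these are the 5 farthest below in CONV among those genes.

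Some genes were listed at 0 in every aerocyte cell of a library although they reached on average 10% of the cells over the 3. CONV had 11 such genes, CONV AsiDNA 4 and FLASH 7. In CONV they were led by Gpnmb, above 0 in 50.6% and 52.4% of the cells of the others, and Ftl1, the ferritin light chain, in 37.5% and 63.1%. Ftl1 was above 0 in 31.1%, 40.1% and 43.4% of non-endothelial cells. In FLASH they were led by Gm42418, a gene that overlaps ribosomal RNA, which stood at 35500, 23270 and 0 adjusted CPM. Sparcl1, a secreted matricellular protein, was above 0 in 51.9% of CONV cells and in none of the others, and Depp1 in 59.3%, 0.625% and 0%. In CONV AsiDNA they included the mitochondrial mt-Nd2, above 0 in 33.3%, 0% and 32.1%. Among genes compared and above 0 in every library, the 5 farthest below both others in CONV AsiDNA encode ribosomal proteins. All 5 reached the limit for comparison through CONV alone, so their place in this order is a description. Rpl28 stood at 239, 8.17 and 169 and Rps28 at 408, 4.90 and 54.6, with 70.2% to 79.3% and 85.1% to 87.3% of non-endothelial cells above 0. Whether the adjustment of the deposited values set such widely expressed genes to 0 unevenly was not tested.

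The lists that follow are read against the shares of all genes given for 2-fold differences, 5.78% and 5.99% higher and 4.71% and 4.4% lower in CONV. Of the 15 genes of vasoactive signalling, 9 had their highest level in CONV and 5 their lowest, where 41.3% of all genes above 0 in any aerocyte cell were highest in CONV and 29.6% lowest. Adora2a, an adenosine receptor that reached the limit for comparison through CONV alone, stood at 224, 6.54 and 0 and was above 0 in 37.0%, 2.5% and 0% of the cells, and Ace, which converts angiotensin, at 3182, 1676 and 1691. Edn1, the endothelin ligand itself, was above 0 in 27.8%, 0.625% and 0% of the aerocyte cells at 533, 50.7 and 0, and it stood at 1686, 1710 and 1906 in the general capillary gate. Calcrl and Ramp2, which form the adrenomedullin receptor, stood at 1758, 2494 and 2635 and at 3849, 4797 and 4299. Ramp3 went the other way, with log2 ratios of 1.73 and 1.60 for CONV over CONV AsiDNA and FLASH. Edn1 was thus read in part of the CONV cells, and Calcrl and Ramp2 were lowest there. Edn1 and Ace were both higher in the CONV cells with Gpihbp1, at 870 against 81.5 and at 3854 against 2282.

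Of the 17 genes of VEGF, angiopoietin and apelin signalling, 7 were compared and none was 2-fold apart in any comparison. Over all 17 genes, 6 were highest and 6 lowest in CONV, beside 41.3% and 29.6% of all genes. Vegfa, below the limit for comparison, had log2 ratios of 3.02 and 3.53 for CONV over CONV AsiDNA and FLASH. Flt1, the decoy VEGF receptor, stood at 941, 1114 and 1291 and the co-receptor Nrp1 at 2360, 2543 and 2876. Both were lowest in CONV, as Kdr was. Aqp1, the water channel of the capillary and the one compared member of its list, stood at 622, 1078 and 1293. Of the 15 further endothelial genes, 14 were compared, with medians of -0.27 and -0.37 for CONV over CONV AsiDNA and over FLASH. Sox17, a transcription factor of arterial endothelium that reached the limit through CONV alone, stood at 149, 22.9 and 3.21, from 25.9%, 5.0% and 1.19% of the cells.

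For chemokines and adhesion, 7 of the 15 genes were compared. Cx3cl1, the membrane-bound chemokine fractalkine, stood at 84.6, 230 and 291 and Icam1, an adhesion molecule for leukocytes, at 433, 817 and 898. Both were lowest in CONV. Nfkbia, the inhibitor of NF-kappaB, was highest there at 931, 433 and 506, and Ackr3, a scavenger receptor for Cxcl12, stood 2-fold higher in CONV than in FLASH. Without the cells of Gpihbp1 and other markers 0 of the list were 2-fold higher than in FLASH. Cxcl12, below the limit for comparison, stood at 1668, 1.63 and 0 and was above 0 in 25.9%, 0.625% and 0% of the cells. In CONV it was at 2532 in the cells with Gpihbp1 and 512 in those without, and 73.3 once the other excluded cells were left out too. Vcam1 and Sele were at 0 in every aerocyte cell.

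Of 20 p53 targets, genes known to respond to DNA damage, 14 were compared. CONV had a median log2 ratio of -0.28 against CONV AsiDNA and of -0.24 against FLASH, but this direction depended on the gate. With Car4 and Ednrb at 2 or more the medians were 0.14 and -0.01, and without the cells of Gpihbp1 and other markers 0.04 and -0.06. Cdkn1a, which encodes p21, stood at 1683, 2312 and 2661 and was above 0 in 98.2%, 95.6% and 96.4% of the cells. CONV was lowest by less than 2-fold, and the general capillary gate stood at 1683, 1485 and 2096. Gdf15, a stress-induced cytokine, stood at 423, 536 and 912, Phlda3 at 682, 1054 and 1057, Plk2 at 468, 219 and 284 and Btg2 at 125, 6.54 and 36.9. Btg2 and Plk2 were 2-fold or more higher in CONV than in CONV AsiDNA and Btg2 than in FLASH, where Gdf15 was lower. Btg2 reached the limit for comparison through CONV alone, and against FLASH 0 genes of the list were 2-fold higher with either stricter gate. Of the 8 genes of dividing cells, Mki67, Top2a, Birc5, Cdk1 and Ccnb1 were listed at 0 in every aerocyte cell.

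In the BMP and TGF-beta list 13 of 17 genes were compared. Smad7, an inhibitory SMAD, stood at 647, 337 and 259 and the ligand Bmp6 at 14.9, 39.2 and 62.6, each 2-fold apart between CONV and FLASH. For Smad7 this was lost without the cells of Gpihbp1 and other markers, where its log2 ratio was 0.62. Bmp6 reached the limit for comparison through FLASH alone. Bmpr2, the receptor mutated in pulmonary hypertension, was even at 1504, 1428 and 1511. In the Notch list 7 of 12 were compared. The ligand Dll4 stood at 69.7, 178 and 188 and the target Hes1 at 428, 203 and 313. Notch1 stood at 229, 376 and 429. Dll4 and Notch1 were lowest in CONV and Hes1 highest there, while the ligand Jag2 was slightly higher in CONV, by 0.32 and 0.10 on the log2 scale. Over all 12 genes, 7 were highest and 4 lowest in CONV, beside 41.3% and 29.6% of all genes.

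The remaining lists differed in how many of their compared genes were 2-fold apart. None of the 8 compared junction genes was 2-fold apart, and their median was 0.07 and 0.02 for CONV over the others. Among 6 compared genes of coagulation, Plat, the tissue plasminogen activator (463, 273 and 206), and its docking protein gene Anxa2 (558, 306 and 260) were 2-fold higher in CONV than in FLASH, and the thrombin receptor gene F2r (59.8, 152 and 130) was 2-fold lower. With either stricter gate 0 of the list were 2-fold higher than in FLASH. Of 12 compared interferon-stimulated genes, Ifitm3 (538, 134 and 209) and Gbp4 (105, 32.7 and 32.1) were 2-fold or more higher in CONV than in both others, Rtp4 (39.8, 101 and 41.8) was 2-fold lower than in CONV AsiDNA, and the median was 0.07 and 0.13, with Igtp below the limit for comparison had CONV not been counted. Without the cells of Gpihbp1 and other markers it was -0.09 and -0.12, and against FLASH 0 genes were 2-fold higher and 3 lower. All 10 MHC class I genes were compared, with B2m at 3062, 3778 and 3213. Psmb9 (105, 40.9 and 64.2) was 2-fold higher in CONV than in CONV AsiDNA and Tap1 (130, 68.6 and 57.8) than in FLASH, but with Car4 and Ednrb at 2 or more none was against FLASH, and without the cells of Gpihbp1 and other markers none was against CONV AsiDNA. None of the 7 MHC class II genes reached the limit. Among 9 compared basement membrane genes Sparc (906, 526 and 287) and Lama5 (130, 70.3 and 52.99) were 2-fold higher in CONV than in FLASH, while the collagen genes Col4a1 (1563, 1842 and 1667) and Col4a2 (1504, 1526 and 1310) were even. With either stricter gate 1 of the list was 2-fold higher than in FLASH. Of the 7 caveolar genes Pacsin2 (164, 65.4 and 59.4) was 2-fold higher in CONV than in both others, which was lost without the cells of Gpihbp1 and other markers, with Cav1 at 1419, 1134 and 1185. The flow-responsive Klf2 stood at 1857, 1758 and 2748 and Klf4 at 2156, 1940 and 2728, highest in FLASH. The 5 compared genes of their list had a median log2 ratio of -0.53 for CONV over FLASH, with 0.02 over all genes compared. With Car4 and Ednrb at 2 or more it was -0.44, where 1 of them was above 0. Against CONV AsiDNA the median was -0.08 with all cells and 0.14 with Car4 and Ednrb at 2 or more. Without the cells of Gpihbp1 and other markers it was -0.36 against CONV AsiDNA. Of the 17 immediate early genes and genes of tissue dissociation, 9 were highest and 1 lowest in CONV, beside 41.3% and 29.6% of all genes. Of the 7 compared, Ier3 (1160, 350 and 368) and Dusp1 (279, 114 and 373) were 2-fold higher in CONV than in CONV AsiDNA and Ier3 than in FLASH, which left 1 and 0 without the cells of Gpihbp1 and other markers. Jun stood at 1713, 1614 and 1956 and Junb, below the limit, at 169, 0 and 85.1, from 11.1%, 0% and 8.33% of the cells, while Fos was above 0 in 5.56%, 0% and 0% of the aerocyte cells and stood at 3513, 743 and 1015 in the general capillary gate.

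**Figure D5:**
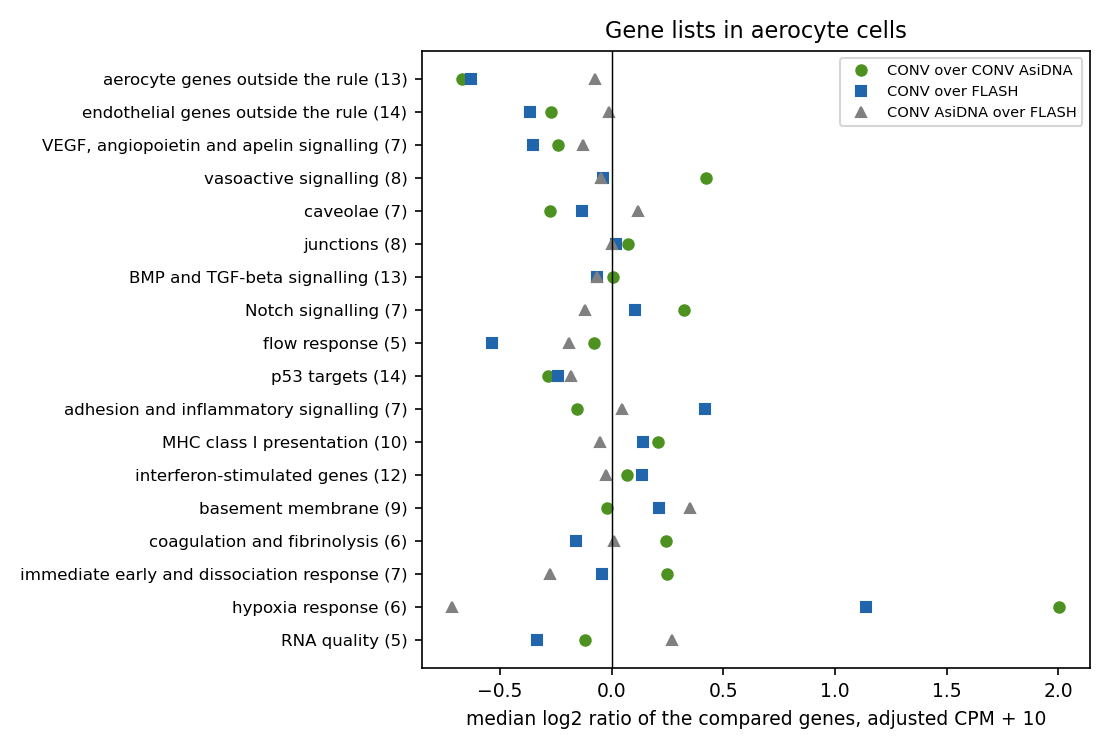
Median log2 ratio of the compared genes of each list with at least 5 such genes (number in brackets), for the 3 pairs of libraries, which share libraries with each other. The aerocyte genes lie at -0.67 and -0.63 for CONV over the others. The hypoxia response median carries no weight, because 4 of its 6 genes were compared through CONV alone. Of the other lists shown, vasoactive signalling held 2 such genes. The Notch, p53, interferon and endothelial lists held 1 each.

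Aerocyte cells were also set against the general capillary gate, with genes ranked once by the smallest of their 3 ratios, Car4, Ednrb and Gpihbp1 left out. The gates were set by Car4, Ednrb and Gpihbp1, so these values are descriptive. The general capillary gate was also broader than its name, with Vwf, a gene of larger vessels, at 1856, 1988 and 2781 and Ccl21a, a lymphatic chemokine, at 810, 1574 and 1978. Of 6135 genes compared, 301 (4.91%) were 2-fold or more higher in aerocyte cells in 3 of 3 libraries and 457 (7.45%) lower. Of the 10 farthest above, 5 belonged to the aerocyte list, namely Fibin, Emp2, Tbx2, Chst1 and Rprml. Fibin stood at 1.70, 3.50 and 1.98 in the general capillary gate, Emp2 at 56.0, 26.2 and 1.98 and Tbx2 at 11.9, 0 and 0. The others were Pcolce2, an enhancer of procollagen processing (617, 807 and 684 in aerocyte cells), the aminopeptidase gene Xpnpep2 (393, 328 and 410), Egflam, of the extracellular matrix (199, 276 and 326), C1qtnf2 (169, 193 and 209) and the phosphatase gene Ptp4a3 (1529, 869 and 752). Farthest below were Plvap, Fos, Prss23, Vwf, Vcam1, Egr1, Crim1, Itga6, Cemip2 and Ptprb. Vcam1 was at 0 in the aerocyte cells of each library and at 353, 283 and 413 in the gate, and the phosphatase Ptprb at 105, 103 and 49.8 against 2304, 2898 and 3886.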

How the data were processed

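Lung cells of 3 libraries, 1 per condition, were analysed. The authors deposited natural log (ln) values, 1 table per library, each the logarithm of 1 plus a whole number within 3.0e-11, and the ln values were converted back to that adjusted count. Per the labels, the processing notes name Cell Ranger 6.0.0 and mm10. No source used here gives the filters on cells or the adjustment. The plan had allowed for raw counts, and no count model was used. Another 4 tables, with 12 sample columns, held gene identifiers of another kind and were not used.

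Counts were summed over the gated cells and scaled per 1000000 over 22954 genes, and log2 ratios used a prior of 10. Shares carry exact Clopper-Pearson 95% intervals, and thinned shares used 1000 adjusted counts per cell. Ratios were checked on simulated data. No clustering and no doublet caller was run. The named genes were those of the rule, the members of 34 lists, the 5 farthest each way per library among genes above 0 in each, up to 5 genes listed at 0 per library, and the 10 farthest each way from the general capillary gate. The members and lists were chosen with earlier results of these data known. The tools were scipy 1.17.1, numpy 2.4.6, matplotlib 3.10.9 and pandas 2.3.3 under Python 3.11.15. RefSeq promoters and the GENCODE annotation of GRCm38 gave sequences and positions.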

Additional observations from a re-analysis of the deposited data

Results flagged for a closer look

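F2r, the thrombin receptor gene, moved in opposite directions in aerocyte cells and in the general capillary gate. Its log2 ratio of CONV over FLASH was -1.01 in aerocyte cells, where it stood at 59.8, 152 and 130 adjusted CPM in CONV, CONV AsiDNA and FLASH. In the general capillary gate the same ratio was 1.69, with 138, 90.9 and 35.6. The difference between these ratios was not tested, as each rests on 1 library per condition. The same ratio also had opposite signs for Emp2 (-1.04 in aerocyte cells and 2.46 in the gate) and for Vegfa (3.53 and -0.91). These rest on low values in part. Emp2 stood at only 56.0, 26.2 and 1.98 adjusted CPM in the gate, and Vegfa was below the limit for comparison in aerocyte cells.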

How the results depend on the processing

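The share of the endothelial gate was within its interval in each library with at least 3 endothelial genes, without the 10% of aerocyte cells with the highest totals, and with at least 500 genes and at most 10% mitochondrial share. With Car4 and Ednrb at 2 or more, CONV fell outside, at 0.534% of all cells and 9.09% of the endothelial gate. With cells of Gpihbp1 and other types left out, the shares of all cells were 0.361%, 1.88% and 2.19%, and those of the gate 6.15%, 28.9% and 28.3%. CONV was lowest under each of these settings. In the same cells, 388 and 375 genes were lower in CONV than in CONV AsiDNA and FLASH, against 246 and 230. Genes higher in CONV numbered 441 and 430 there, against 302 and 313. With a prior of 1, CONV AsiDNA was higher than FLASH for 113 genes and lower for 103, against 50 and 47. With genes above 0 in 20% of cells, CONV was higher for 100 and 106 genes and lower for 119 and 117, and CONV AsiDNA higher than FLASH for 11 and lower for 8. With no filter beyond a sum of 20 these counts were 515, 514, 452, 451, 132 and 150. Scaling by the median gene ratio, equal weight of cells and, added after seeing the data, removal of ribosomal and mitochondrial genes kept each count within 1.5 times. No named gene past 2-fold reversed. No paired analysis was possible because each condition has 1 library. The 54 CONV cells limit the precision, as does 1 mouse per condition.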
